A study of Mus musculus with 12 samples.

Results

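The MHC class II chain genes and their transactivator are a set of 10 genes, taken as a family by function and not by any value: H2-Aa, H2-Ab1, H2-Eb1, H2-Eb2, H2-DMa, H2-DMb1, H2-DMb2, H2-Oa, H2-Ob and Ciita. All 10 were measured, among 22184 genes on the arrays. Expression was recorded on 12 microarrays of classical dendritic cells (cDCs) and their progenitors. The mice were C57Bl/6, of the N8 generation of a Zbtb46GFP/+ line, so every group carried GFP in 1 copy of Zbtb46, whose product is a transcription factor of cDCs. They were littermates, 8 to 10 in number, taken at steady state, and cells were sorted to a purity above 95%. From bone marrow came the common DC progenitor (CDP, 3 arrays), the pre-CD8 progenitor (2 arrays) and the pre-CD4 progenitor (2 arrays). From spleen came the mature CD24 DC (3 arrays) and CD172a DC (2 arrays). Pre-CD8 cells are progenitors committed to the cDC1 lineage, of which CD24 DCs are the mature form, and pre-CD4 cells are those of the cDC2 lineage, of which CD172a DCs are the mature form. No age or sex was given.

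Surface MHC class II was part of the gates, so the transcripts of the classical chains (H2-Aa, H2-Ab1 and H2-Eb1) are not independent of how the cells were chosen. CDPs were gated as class II negative and CD11c negative, with CD135 and CD115 and intermediate CD117. Pre-CD8 cells were gated as class II intermediate, CD11c positive and Siglec H negative. Pre-CD4 cells were gated as class II negative, CD11c and CD115 positive, with low CD117. CD172a DCs were gated as positive for CD11c, class II and CD172a. The gate written for CD24 DCs is CD11c and CD24 positive, CD172a negative and class II negative. At the RNA level the CD24 DC arrays go against that last term. H2-Aa, H2-Ab1 and H2-Eb1 were at or near their highest levels on them (11.41 to 12.35 on the log2 scale). Transcripts were also present in pre-CD4 cells, likewise gated as class II negative. Their arrays read 7.67 and 9.45 for H2-Aa and 8.17 and 10.20 for H2-Ab1, above the upper quartile of all values (6.63). For H2-Eb1 they read 6.05 and 7.07. Surface protein was not among the data used here, and the results for CD24 DCs rest on these 3 arrays. The labels do not say whether the arrays of a group came from separate sorts or pools, so p-values reflect the spread of these arrays alone, and that spread may be technical.

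MHC class II molecules present peptides from endocytosed proteins to CD4+ T cells, and cDCs are the main cells that prime naive T cells with them. A class II molecule is a pair of an α and a β chain. H2-Aa and H2-Ab1 encode the pair called I-A, and H2-Eb1 encodes the β chain of I-E. H2-Eb2 encodes a further, I-E-like β chain. H2-DMa with H2-DMb1 or H2-DMb2 forms DM, an endosomal chaperone that removes the invariant chain fragment and edits the bound peptide. H2-Oa and H2-Ob form DO, which inhibits DM. Ciita encodes the coactivator CIITA, which does not bind DNA itself but is recruited to a shared set of promoter boxes (S, X and Y) by RFX, CREB and NF-Y proteins. In RefSeq's GRCm38.p6, 9 of the genes lie on chromosome 17 between 34092379 and 34341410, a span of 249 kb, and Ciita lies on chromosome 16 (chr16:10480014-10531064).

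The stretches below are shown because these genes share a promoter layout that CIITA acts through. They come from RefSeq promoter windows of GRCm38.p6, which run from 250 bases before to 50 bases after a start site. Windows were listed for 8 of the 10 genes, and those of H2-Ab1 and Ciita are not analysed here. Each stretch is printed 5′ to 3′ on the strand of its gene. Capitals mark AAC and, 24 to 27 bases further on, GATTGG, whose reverse complement is the CCAAT letters to which NF-Y binds. The range of the gap was read off these windows.
H2-Aa: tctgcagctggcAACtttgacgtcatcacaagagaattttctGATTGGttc
H2-Eb1: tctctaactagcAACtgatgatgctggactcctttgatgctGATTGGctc
H2-Eb2: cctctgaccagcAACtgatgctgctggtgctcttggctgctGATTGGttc
H2-DMb1: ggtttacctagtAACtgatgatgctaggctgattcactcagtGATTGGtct
H2-DMb2: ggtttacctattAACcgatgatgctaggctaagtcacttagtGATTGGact
H2-Oa: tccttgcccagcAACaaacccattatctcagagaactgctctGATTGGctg
H2-Ob: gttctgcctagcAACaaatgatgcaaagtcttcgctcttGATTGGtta

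The pair of letters was present in 7 of the 8 genes with a window, and in neither window of H2-DMa. It was present on the gene's strand in 0.393% of all 32851 windows, and on either strand in 0.913%. Because the gap range was read off the windows of these genes, the counts do not test whether they carry the pair more often. The first count is of genes, and the percentages are of windows. GATTGG alone was in 8.71% of windows on the gene's strand. The H2-Aa stretch lies at chr17:34287864-34287914 on the minus strand. The others are on the plus strand, at chr17:34305766-34305815 for H2-Eb1, chr17:34325533-34325582 for H2-Eb2, chr17:34153087-34153137 for H2-DMb1 and chr17:34145116-34145166 for H2-DMb2. Those of the DO genes are at chr17:34092293-34092343 for H2-Oa and chr17:34238808-34238855 for H2-Ob. In H2-Eb2 and H2-DMb2 the stretch falls inside the annotated span of the gene, which has further start sites upstream. The stretches of H2-DMb1 and H2-DMb2 had 45 of 51 bases in common, and those of H2-Eb1 and H2-Eb2 had 39 of 50. These are pairs of similar genes, and probes of one may also bind the transcript of the other, so values within a pair are uncertain in that respect. The CREB site letters TGACGTCA, a palindrome, were found in the H2-Aa window alone among these genes and in 1.79% of all windows. A match describes the letters and is not evidence of binding.

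Levels are given as the deposited log2 values, 1 unit being a doubling of the signal. Probe sets differ in how they bind, so levels are compared between populations and not between genes. Over all genes and arrays the lower quartile was 4.19, the median 5.2 and the upper quartile 6.63. A difference is called when the adjusted p of limma's moderated test (Benjamini-Hochberg over the 22184 genes, all 12 arrays in 1 fit) is under 0.05. Values are mean ± SD over arrays, and log2 differences are ± SE. In such bulk samples, fewer cells with a transcript and less RNA per cell cannot be told apart.

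**Figure D1:**
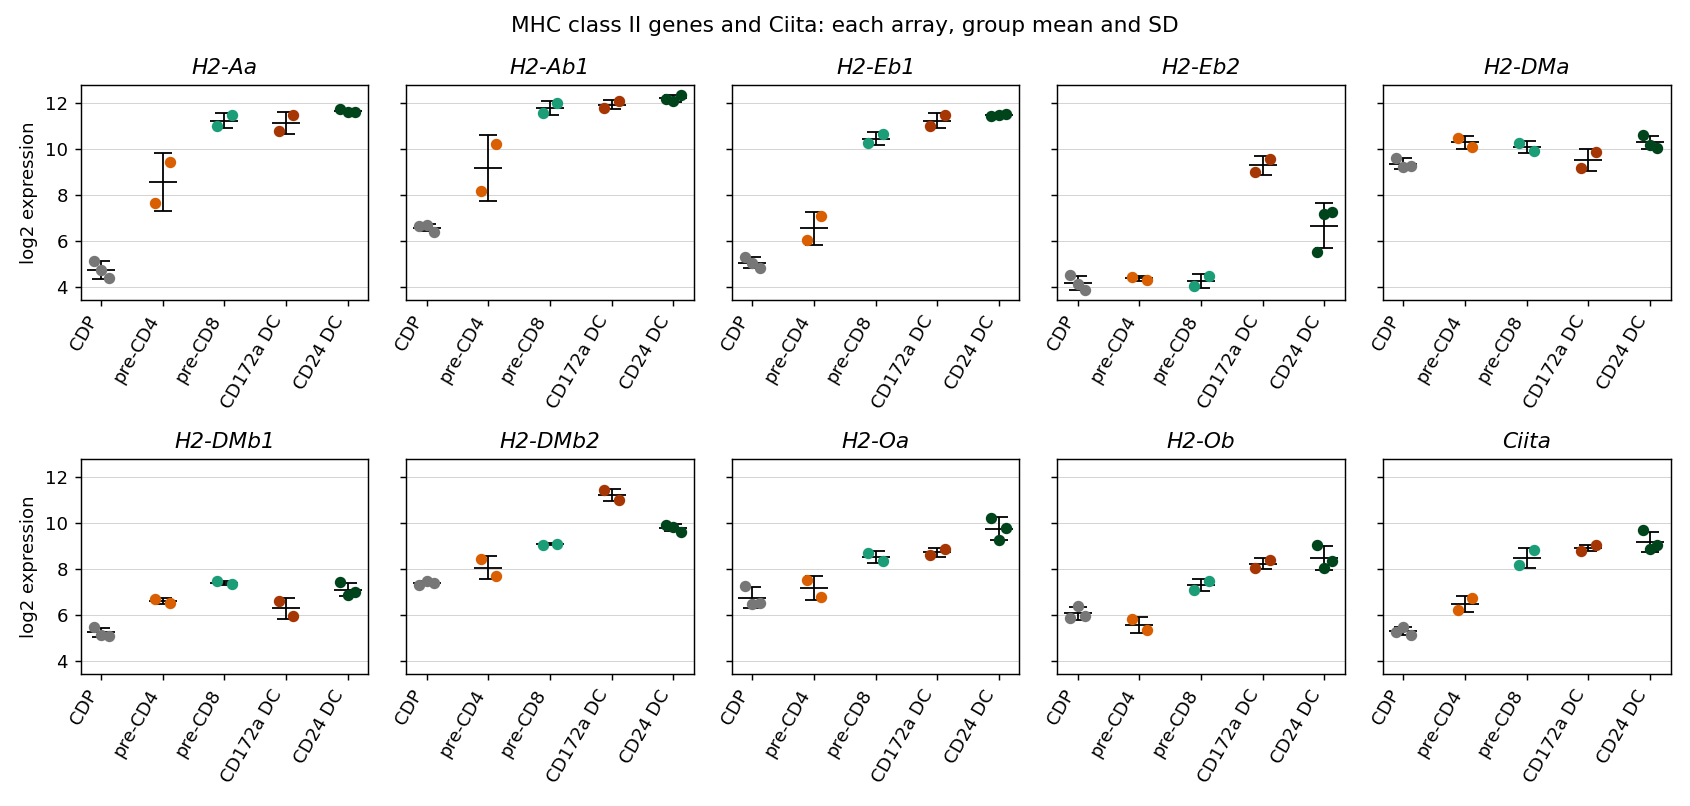
Log2 level (deposited values, y axis) of each of the 10 genes in every array, by population (x axis). Points are arrays, and black bars are the group mean ± SD. H2-Aa runs from 4.38 to 5.15 in CDP and from 11.00 to 11.46 in pre-CD8, with the pre-CD4 arrays between them at 7.67 and 9.45.

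H2-Aa, the I-A α chain, lay between the lower quartile and the median of all values in CDPs. It was higher in both committed progenitors, more in pre-CD8 than in pre-CD4 cells. The CDP arrays read 5.15, 4.75 and 4.38. The pre-CD4 arrays read 7.67 and 9.45, and the pre-CD8 arrays 11.00 and 11.46. The CD172a DC arrays read 10.79 and 11.45, and the CD24 DC arrays 11.74, 11.62 and 11.59. No CDP array approached any other array, both pre-CD4 arrays lay below every pre-CD8 and mature array, and the pre-CD8 and CD172a DC arrays overlapped. Against CDP, the pre-CD8 level was higher by 6.47 ± 0.41 (88.4-fold, adjusted p = 1.21e-06), the largest increase among all genes in that comparison. The pre-CD4 level was higher than CDP by 3.79 ± 0.41 (13.9-fold, adjusted p = 0.000158).

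H2-Ab1, the I-A β chain, followed the same order up to pre-CD8 cells. It read 6.67, 6.70 and 6.41 in CDP, then 8.17 and 10.20 in pre-CD4, and 11.57 and 11.98 in pre-CD8. The mature arrays read 11.79 and 12.06 in CD172a DCs and 12.16, 12.06 and 12.35 in CD24 DCs. Pre-CD4 arrays stood clear of both sides, while pre-CD8 and CD172a DC arrays overlapped. H2-Ab1 was higher than in CDP by 5.18 ± 0.41 in pre-CD8 (36.2-fold, adjusted p = 1.05e-05) and by 2.59 ± 0.41 in pre-CD4 (6.02-fold, adjusted p = 0.00265).

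H2-Eb1, the I-E β chain, had the largest difference between the 2 progenitors among the 10 genes. The CDP arrays read 5.33, 5.05 and 4.83, the pre-CD4 arrays 6.05 and 7.07, and the pre-CD8 arrays 10.26 and 10.65. The CD172a DC arrays read 10.99 and 11.47, and the CD24 DC arrays 11.41, 11.46 and 11.50. The 2 mature populations overlapped, and every progenitor array lay below them. Pre-CD8 exceeded pre-CD4 by 3.90 ± 0.31 (14.9-fold, adjusted p = 3.31e-05), a larger difference than that of H2-Aa (2.67 ± 0.45, adjusted p = 0.0115) or H2-Ab1 (2.59 ± 0.45, adjusted p = 0.0163). The difference between these genes was not tested. Pre-CD4 exceeded CDP by 1.49 ± 0.28 (adjusted p = 0.00767), and without pre-CD4 array 2 by 0.98 with an adjusted p of 0.154.

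The 2 pre-CD4 arrays differed from each other by 1.78 for H2-Aa, 2.03 for H2-Ab1 and 1.02 for H2-Eb1, array 2 being higher each time. For Ciita array 2 was higher by 0.51. For the other 6 genes array 1 was the higher one, by 0.14 to 0.74. Calls for H2-Aa and H2-Ab1 between progenitors depend in part on single arrays, of pre-CD4 or pre-CD8 for H2-Aa and of pre-CD8 for H2-Ab1. Without pre-CD4 array 1, pre-CD8 exceeded pre-CD4 by 1.78 for H2-Aa (adjusted p = 0.0886). Without pre-CD8 array 2, the adjusted p was 0.156 for H2-Aa and 0.189 for H2-Ab1, and with only these 4 arrays in the fit it was 0.263 and 0.34. H2-Eb1 stayed called in each of those fits.

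H2-Eb2, the I-E-like β chain, was near the lower quartile of all values in every progenitor and was called higher in both mature populations, most of all in CD172a DCs. CDP arrays read 4.51, 4.16 and 3.88, pre-CD4 arrays 4.45 and 4.31, and pre-CD8 arrays 4.05 and 4.48. CD172a DC arrays read 9.0 and 9.58, and CD24 DC arrays 5.53, 7.18 and 7.28. The 3 progenitors overlapped throughout, the mature groups stood above them without overlap, and CD24 DC array 1 was lower than the other CD24 DC arrays. CD172a DCs exceeded pre-CD4 by 4.91 ± 0.47 (30.2-fold, adjusted p = 1.69e-05), and CD24 DCs exceeded pre-CD8 by 2.40 ± 0.42 (5.27-fold, adjusted p = 0.0032). The latter call was lost without pre-CD8 array 1 (2.18, adjusted p = 0.0591). Against CDP, the difference was 0.08 in pre-CD8 (95% interval -0.83 to 1.00) and 0.19 in pre-CD4 (-0.72 to 1.11), neither called.

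H2-DMa, the DM α chain, was above the upper quartile of all genes in every array (9.18 to 10.61) and had the narrowest range of the 10 genes. It read 9.62, 9.20 and 9.26 in CDP, 10.48 and 10.07 in pre-CD4, and 10.27 and 9.91 in pre-CD8. The spleen arrays read 9.18 and 9.86 in CD172a DCs and 10.61, 10.18 and 10.04 in CD24 DCs. CDP and CD172a DC arrays overlapped at the low end, and the other populations overlapped at the high end. Among the 10 pairs of populations, 1 was called: CD24 DCs exceeded CDPs by 0.92 ± 0.24 (adjusted p = 0.0131), a call lost without CDP array 2 (adjusted p = 0.0548) or CDP array 3 (0.0537). The pre-CD4 and pre-CD8 excesses over CDP were 0.92 ± 0.26 and 0.73 ± 0.26 and were not called (adjusted p = 0.0741 and 0.167).

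H2-DMb1 and H2-DMb2, the DM β chains, placed the 2 mature populations in a different order. H2-DMb1 read 5.48, 5.14 and 5.10 in CDP, 6.68 and 6.51 in pre-CD4, and 7.45 and 7.33 in pre-CD8. It then read 6.60 and 5.97 in CD172a DCs and 7.42, 6.87 and 6.98 in CD24 DCs. Its highest mean was thus in a progenitor: pre-CD8 arrays lay above all CD172a DC arrays and overlapped the CD24 DC arrays. It exceeded CDP by 2.15 ± 0.24 in pre-CD8 (adjusted p = 0.000135) and by 1.35 ± 0.24 in pre-CD4 (adjusted p = 0.00496, or 0.0658 without pre-CD4 array 1). CD172a DCs were lower than pre-CD8 cells (-1.11 ± 0.26, adjusted p = 0.0172), a call lost without CD172a DC array 2 (adjusted p = 0.148), pre-CD8 array 1 (0.126) or pre-CD8 array 2 (0.0543).

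H2-DMb2 read 7.31, 7.49 and 7.37 in CDP, 8.41 and 7.70 in pre-CD4, and 9.05 and 9.09 in pre-CD8. The mature arrays read 11.40 and 10.99 in CD172a DCs and 9.89, 9.83 and 9.61 in CD24 DCs. No 2 populations overlapped, and the order from the highest was CD172a DC, CD24 DC, pre-CD8, pre-CD4 and CDP. CD172a DCs exceeded pre-CD4 by 3.14 ± 0.25 (8.82-fold, adjusted p = 4.54e-06). CD24 DCs were lower than CD172a DCs (-1.42 ± 0.23, 2.67-fold, adjusted p = 0.00214), while for H2-DMb1 the same difference was 0.80 ± 0.24 and not called (adjusted p = 0.075). In pre-CD8 it exceeded CDP by 1.68 ± 0.23 (adjusted p = 0.000635). Its excess in pre-CD4 over CDP, 0.66 ± 0.23, was not called (adjusted p = 0.149).

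H2-Oa, the DO α chain, had its highest mean in CD24 DCs, a difference not called against CD172a DCs (1.02 ± 0.33, adjusted p = 0.103), and was not called between pre-CD4 and CDP. CDP arrays read 7.27, 6.45 and 6.50, pre-CD4 arrays 7.53 and 6.79, and pre-CD8 arrays 8.69 and 8.34. CD172a DC arrays read 8.58 and 8.86, and CD24 DC arrays 10.22, 9.23 and 9.76. Pre-CD4 overlapped CDP, pre-CD8 overlapped CD172a DCs, and the CD24 DC arrays lay above all others. Pre-CD8 exceeded CDP by 1.78 ± 0.33 (adjusted p = 0.00605, or 0.0777 without pre-CD8 array 1). CD172a DCs exceeded pre-CD4 by 1.56 ± 0.36 (adjusted p = 0.0116, lost without CD172a DC array 2 at 0.0791 and without pre-CD4 array 2 at 0.104). CD24 DCs exceeded pre-CD8 by 1.22 ± 0.33 (adjusted p = 0.0441). That call was lost without CDP array 2 or 3, either pre-CD8 array, either CD172a DC array, or CD24 DC array 1 or 3, with adjusted p between 0.0545 and 0.208. A second probe set, listed with several symbols and so not used, read 5.29 to 5.58 in CDP, 5.5 and 5.7 in pre-CD4, 6.65 and 6.84 in pre-CD8, 7.61 and 7.82 in CD172a DCs, and 7.62, 7.37 and 7.52 in CD24 DCs. On that probe set CD172a DCs had the higher mean of the mature populations.

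H2-Ob, the DO β chain, had its lowest mean in pre-CD4 cells, below CDP. CDP arrays read 5.85, 6.39 and 5.93, pre-CD4 arrays 5.81 and 5.33, and pre-CD8 arrays 7.10 and 7.46. CD172a DC arrays read 8.05 and 8.39, and CD24 DC arrays 9.04, 8.03 and 8.34. The pre-CD4 arrays lay just under the CDP arrays, pre-CD8 stood apart from both, and the mature populations overlapped each other above the rest. The pre-CD4 difference from CDP was -0.49 ± 0.30 and was not called (adjusted p = 0.518). CD172a DCs exceeded pre-CD4 by 2.66 ± 0.32 (6.31-fold, adjusted p = 0.000134). Pre-CD8 exceeded CDP by 1.22 ± 0.30 (adjusted p = 0.0303, or 0.0572 with a replicate block), and the call was lost without CDP array 1 (0.108), CDP array 3 (0.105), pre-CD8 array 1 (0.0845) or pre-CD8 array 2 (0.24). Pre-CD8 exceeded pre-CD4 by 1.71 ± 0.32 (adjusted p = 0.0268), a call lost without either pre-CD4 array (0.0858 and 0.264) or either pre-CD8 array (0.0623 and 0.276). CD24 DCs exceeded pre-CD8 by 1.19 ± 0.30 (adjusted p = 0.0286), a call lost without CD24 DC array 1 (0.0512) or 3 (0.0519) or without pre-CD8 array 1 (0.307) or 2 (0.0606).

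Ciita, the transactivator gene, stepped up from CDP to pre-CD4 to pre-CD8 and did not differ by a call between pre-CD8, CD172a DC and CD24 DC. CDP arrays read 5.25, 5.48 and 5.13, pre-CD4 arrays 6.23 and 6.74, and pre-CD8 arrays 8.17 and 8.80. CD172a DC arrays read 8.79 and 9.01, and CD24 DC arrays 9.66, 8.85 and 9.01. The first 3 populations were separate, and CD172a DC arrays overlapped both pre-CD8 and CD24 DC arrays, which did not overlap each other. Pre-CD8 exceeded CDP by 3.20 ± 0.28 (9.17-fold, adjusted p = 2.23e-05). It exceeded pre-CD4 by 2.00 ± 0.30 (adjusted p = 0.00606), a call lost without pre-CD4 array 1 (1.75, adjusted p = 0.103), without pre-CD8 array 2 (1.69, adjusted p = 0.106) and with only these 4 arrays in the fit (0.109). Pre-CD4 exceeded CDP by 1.20 ± 0.28 (2.29-fold, adjusted p = 0.0246). That call was lost without pre-CD4 array 2 (0.277), pre-CD4 array 1 (0.0552), CDP array 1 (0.0782) or CDP array 3 (0.097).

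Across the set, the step from CDP to pre-CD8 was the broadest change between bone marrow populations: 8 of 10 genes were called higher and 0 lower, against 2.29% of all genes called higher and 2.47% called lower. H2-Eb2 and H2-DMa were the 2 genes not called. The median log2 difference of the 10 genes was 1.97, and 0.03 over all genes. Without a single array, the count lay between 6 and 8. The calls over all genes, 1057 in either direction, then lay between 510 (without pre-CD8 array 2) and 1315.

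From CDP to pre-CD4, 5 of 10 genes were called higher (H2-Aa, H2-Ab1, H2-Eb1, H2-DMb1 and Ciita) and 0 lower, against 2.32% of all genes called higher and 2.23% called lower. The median difference was 1.06, and 0.02 over all genes. Both comparisons share the CDP arrays. Leaving out either pre-CD4 array gave a count of 3. The calls over all genes were 1008, and 452 and 298 without pre-CD4 array 1 and array 2.

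Directly between the progenitors, 5 of 10 genes were higher in pre-CD8 than in pre-CD4 (H2-Aa, H2-Ab1, H2-Eb1, H2-Ob and Ciita) and 0 lower, where 0.383% of all genes were called higher and 0.32% lower. The median difference was 1.54, and 0.01 over all genes. The gates for these cells differed in class II, intermediate against negative. The count fell to 2 without pre-CD4 array 1 and to 1, H2-Eb1, without pre-CD8 array 2. It was also 1 with only the 4 arrays compared in the fit. The calls over all genes were 156, 64 without pre-CD4 array 1, 82 without pre-CD4 array 2 and 58 without pre-CD8 array 2.

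**Figure D2:**
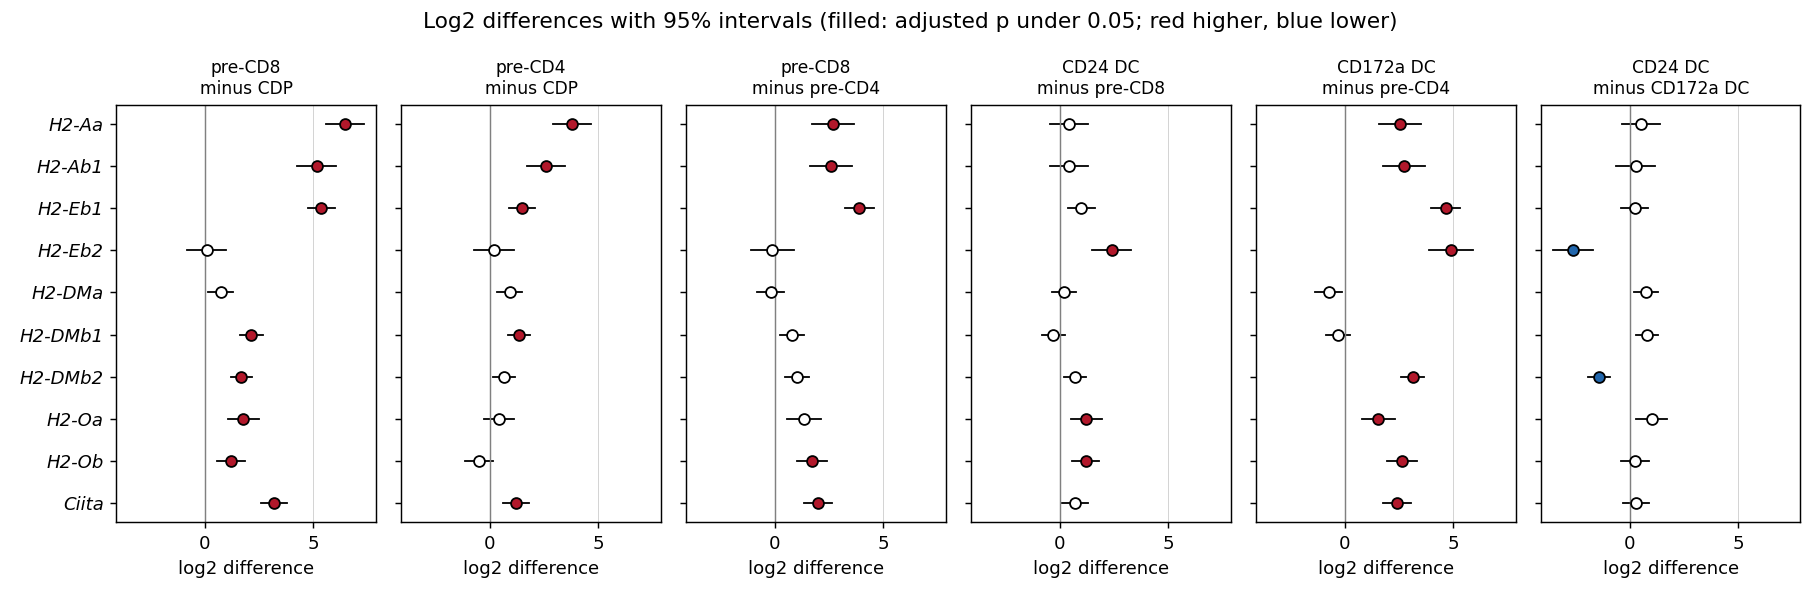
Log2 difference (x axis, with 95% interval of limma's fit) of each of the 10 genes (y axis) in 6 comparisons, 1 panel each. Filled points are called at an adjusted p under 0.05. H2-Eb2 lies at 0.08 for pre-CD8 against CDP and at 4.91 for CD172a DC against pre-CD4.

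From pre-CD8 to CD24 DC, 3 of 10 genes were called higher (H2-Eb2, H2-Oa and H2-Ob) and 0 lower, against 2.65% and 3.66% of all genes. H2-Aa, H2-Ab1 and Ciita differed by 0.42 ± 0.41, 0.42 ± 0.41 and 0.69 ± 0.28, none called. The intervals reach from -0.46 to 1.31 for H2-Aa and from 0.09 to 1.29 for Ciita. Without a single array the count ran from 0 (without pre-CD8 array 1) to 4, and it was 1 without pre-CD8 array 2, CD24 DC array 1 or CD24 DC array 3. From pre-CD4 to CD172a DC, 8 of 10 genes were called higher, all but H2-DMa and H2-DMb1, and 0 lower, against 4.7% and 8.02% of all genes. The median difference was 2.61, and 0.09 over all genes. H2-Eb2 had the largest difference of the 10 genes, given above, followed by H2-Eb1 with 4.67 ± 0.31 (25.5-fold, adjusted p = 1.55e-06). H2-Ab1 was higher by 2.74 ± 0.45 (adjusted p = 0.00133) and H2-Aa by 2.57 ± 0.45 (adjusted p = 0.00191). Ciita was higher by 2.42 ± 0.30 (5.34-fold, adjusted p = 0.000169). With 1 array left out, the calls over all genes ran from 571 to 1940 (1399 with all arrays) for CD24 DC against pre-CD8 and from 1233 to 3417 (2821 with all arrays) for CD172a DC against pre-CD4.

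The mature populations differed in 2 of 10 genes, H2-Eb2 and H2-DMb2, both lower in CD24 DCs, where 2.37% of all genes were called lower and 3.21% higher. H2-Eb2 was 6.18-fold lower in CD24 DCs (-2.63 ± 0.42, adjusted p = 0.00213). H2-Aa, H2-Ab1, H2-Eb1 and Ciita differed by 0.53, 0.27, 0.23 and 0.27, none called. Their 95% intervals were -0.35 to 1.41, -0.63 to 1.16, -0.38 to 0.84 and -0.33 to 0.87, which do not show that the levels are equal. With a replicate block, H2-DMb1 (0.87, adjusted p = 0.0227) and H2-Oa (1.07, adjusted p = 0.0388) were also called, higher in CD24 DCs. Against CDP, 10 of 10 genes were higher in CD24 DCs (8.3% of all genes called higher) and 9 of 10 in CD172a DCs (8.68%), the exception being H2-DMa.

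Across the lineages, 8 of 10 genes were higher in CD24 DCs than in pre-CD4 cells, all but H2-DMa and H2-DMb1, where 4.44% of all genes were called higher. CD172a DCs differed from pre-CD8 cells in 3 of 10 genes: H2-Eb2 (5.03 ± 0.47, adjusted p = 2.17e-05) and H2-DMb2 (2.12 ± 0.25, adjusted p = 0.000161) were higher and H2-DMb1 lower, where 3.48% of all genes were called higher and 5.94% lower. H2-Aa, H2-Ab1, H2-Eb1 and Ciita were not among the 3.

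Whether the gap between lineages differed between spleen and marrow was tested as a contrast: CD24 DC minus CD172a DC, less pre-CD8 minus pre-CD4. It was called for 2 of 10 genes, H2-Eb1 (-3.67 ± 0.42, adjusted p = 0.000959) and H2-DMb2 (-2.43 ± 0.34, adjusted p = 0.00322), where 0.532% of all genes were called in that direction and 0.5% in the other. For H2-Eb1 a gap of 3.90 between progenitors became 0.23 between mature cells. For H2-DMb2 a gap of 1.02 towards pre-CD8 became 1.42 towards CD172a DC. H2-Aa (-2.14), H2-Ab1 (-2.32), H2-Eb2 (-2.52) and Ciita (-1.73) had the same sign and were not called (adjusted p = 0.141, 0.113, 0.0907 and 0.0743). The count was 5 without CD24 DC array 1 and 4 without pre-CD4 array 2. Tissue, digestion and stage differ together between marrow and spleen and cannot be told apart. The progenitor gap also sets cells gated as class II intermediate against cells gated as class II negative. For the classical chains the contrast is thus not independent of the gates.

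**Figure D3:**
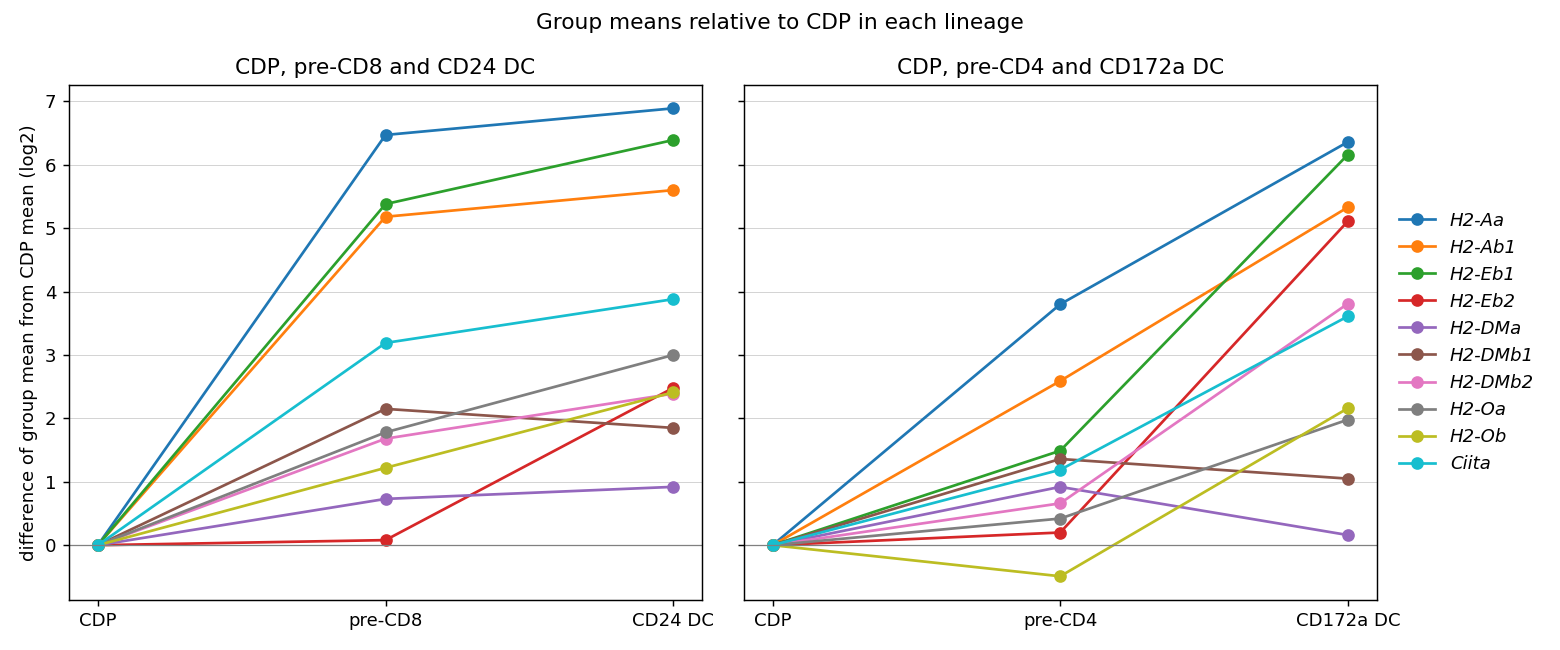
Difference of each group mean from the CDP mean (log2, y axis) in CDP, the progenitor and the mature cell (x axis), with 1 line per gene, the pre-CD8 and CD24 DC lineage on the left and the pre-CD4 and CD172a DC lineage on the right. H2-Eb1 stands at 5.39 in pre-CD8 and at 1.49 in pre-CD4.

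The share of the CDP-to-mature log2 distance present in the progenitor was taken for each gene. The populations were sorted separately and are not a time course. Pre-CD8 cells were gated as class II intermediate and pre-CD4 cells as class II negative, and tissue changes with stage. Shares of the classical chains are thus not independent of the gates. The share is a ratio with no test, and ranges are from leaving out 1 array at a time. On the way to CD24 DCs, pre-CD8 cells had covered 94% for H2-Aa (90 to 97), 93% for H2-Ab1 (89 to 96), 84% for H2-Eb1 (81 to 87) and 82% for Ciita (74 to 90). H2-DMa was at 80% (60 to 99) and H2-DMb2 at 70% (68 to 72). The DO genes were at 59% for H2-Oa (53 to 65) and 51% for H2-Ob (43 to 58), and H2-Eb2 was at 3% (-6 to 12). H2-DMb1, at 116% (110 to 128), had a mean above that of CD24 DCs, a difference that was not called (-0.30 ± 0.24, adjusted p = 0.584). On the way to CD172a DCs, pre-CD4 cells had covered 60% for H2-Aa (46 to 74), 49% for H2-Ab1 (30 to 68), 33% for Ciita (26 to 40) and 24% for H2-Eb1 (16 to 33). H2-DMb2 stood at 17% (8 to 27), H2-Oa at 21% (2 to 40) and H2-Eb2 at 4% (1 to 7), while H2-Ob stood at -23% (-34 to -12) because its pre-CD4 mean lay below CDP. H2-DMb1 stood at 129% (99 to 186). The ranges of the 2 lineages were separate for H2-Aa, H2-Ab1, H2-Eb1, H2-DMb2, H2-Oa, H2-Ob and Ciita, and overlapped for H2-Eb2 and H2-DMb1. These ranges are not confidence intervals, and both lineages use the same CDP arrays. Such shares were not taken over all genes, so how often ranges separate in general is not known. For H2-DMa no share is given in the CD172a DC lineage, since its mature level was not called different from CDP.

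When the 5 populations were ordered by mean for each gene, 13 of the 40 pairs of neighbours differed by a call. The order came from the same values as the calls. The 40 pairs also mix comparisons in which different shares of all genes were called higher. That share was 0.383% for pre-CD8 over pre-CD4 and 8.68% for CD172a DC over CDP. No single share of all genes can therefore stand beside the 13. Ciita, H2-Ab1 and H2-Eb1 had called steps at the same places, pre-CD8 over pre-CD4 and pre-CD4 over CDP. H2-Aa had the order CD24 DC, pre-CD8, CD172a DC, pre-CD4, CDP, with called steps from CD172a DC to pre-CD4 and from pre-CD4 to CDP. H2-Eb2 ran CD172a DC, CD24 DC, pre-CD4, with both of these steps called. H2-DMb2 had 1 called step, CD172a DC over CD24 DC, and H2-DMb1 had 1, CD172a DC over CDP, which was lost without CD172a DC array 1 (adjusted p = 0.121). H2-Ob had 1, pre-CD8 over CDP. No neighbours differed by a call for H2-DMa or H2-Oa.

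Over the 12 arrays the 45 pairs among the 10 genes had a median Pearson r of 0.78, from -0.09 (H2-Eb2 with H2-DMa) to 0.99. These are descriptions, since the arrays fall into 5 populations and each array contributes to every gene. Ciita correlated at 0.99 with H2-Eb1, 0.98 with H2-Ab1 and 0.97 with H2-Aa. It correlated at 0.92 with H2-Oa, 0.90 with H2-Ob, 0.87 with H2-DMb2 and 0.78 with H2-DMb1. With H2-Eb2 (0.64) and H2-DMa (0.45) it correlated least. H2-Eb2 was closest to H2-DMb2 (0.88) and had an r of 0.13 with H2-DMb1. The 2 DM β chains had an r of 0.51 with each other.

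**Figure D4:**
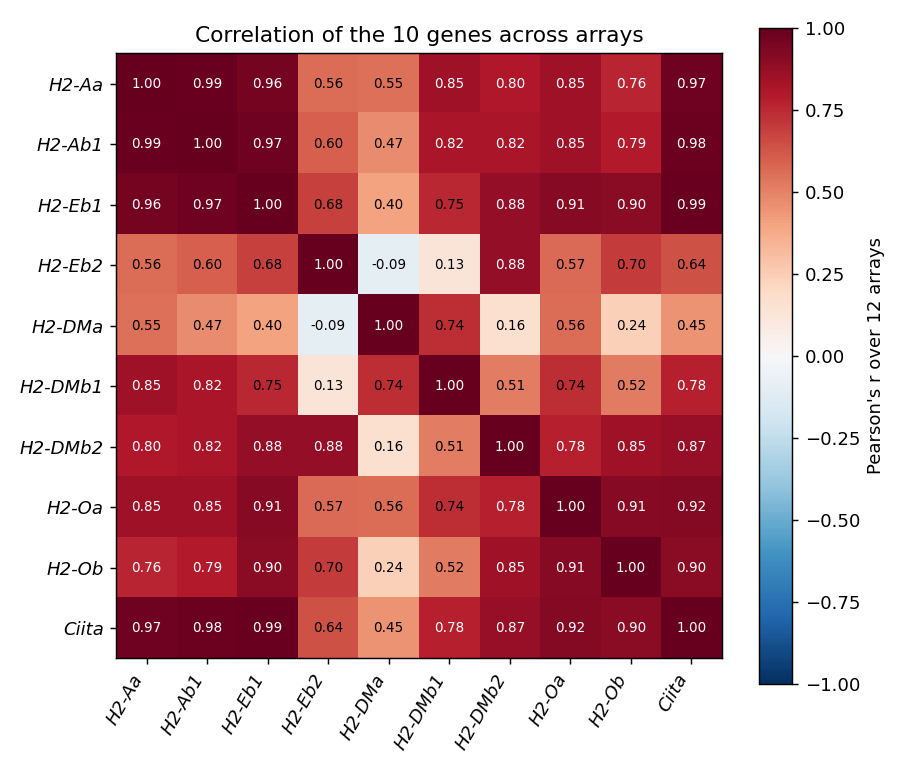
Pearson r over the 12 arrays between each pair of the 10 genes (both axes list the genes; colour and printed value give r). Ciita, H2-Aa, H2-Ab1 and H2-Eb1 form the block of highest values, while H2-Eb2 with H2-DMa is lowest at -0.09.

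Other genes with like patterns were sought among 1274 genes whose group means span at least 2 log2 units, as the 5 of highest r over the 12 arrays for each of 5 of the genes. For H2-Aa these were P2ry10 (0.986), the transporter gene Slc46a3 (0.985), the receptor gene Slamf7 (0.983), the transcriptional repressor gene Bcl6 (0.983) and Phf11b (0.983). For Ciita they were Anpep, which encodes aminopeptidase N (0.981), the PI3-kinase subunit gene Pik3cb (0.979), the kinase genes Lrrk2 (0.978) and Cdk14 (0.978), and Tbc1d9 (0.973). Anpep means went from 5.05 in CDP to 6.67 in pre-CD4, 9.06 in pre-CD8, 10.19 in CD172a DCs and 10.95 in CD24 DCs. For H2-DMb1 they were Arid3b (0.973), Rab39 (0.956), Gramd3 (0.953), Aif1 (0.944) and Slfn5 (0.938). Arid3b, a DNA-binding protein gene, was like H2-DMb1 highest in pre-CD8 (8.29) and lower in CD172a DCs (6.78). For H2-Oa they were the tetraspanin gene Cd9 (0.976), Scimp (0.957), 5830428M24Rik (0.954), Zfp366 (0.948) and Treml4 (0.941). For H2-Ob they were Scimp (0.959), Nlrp1c-ps (0.952), Rasgrp3 (0.951), Gbp9 (0.950) and Zfp366 (0.943). Of the 25 names, 11 were also named when r was taken over the 5 group means.

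The promoter-bound partners of CIITA were not called between bone marrow populations. Of 11 genes for RFX, CREB, NF-Y and coactivators, 0 were called in pre-CD8 against CDP, pre-CD4 against CDP or pre-CD8 against pre-CD4, where 4.76%, 4.54% and 0.703% of all genes were called either way. At an unadjusted limma p under 0.05 the counts were 0, 1 and 0. Rfx5, an RFX subunit gene, had means between 5.66 and 6.27 in all 5 populations. Nfyb, which encodes an NF-Y subunit, was lower in CD24 DCs than in pre-CD8 cells (-1.39 ± 0.23, adjusted p = 0.00202). It was also lower in CD172a DCs than in pre-CD4 cells (-2.14 ± 0.25, adjusted p = 0.000107).

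Among 10 measured genes that act on Ciita, Irf4 and Irf8, which encode related transcription factors, differed most between populations. Irf4 averaged 4.10 ± 0.27 in CDP (n = 3), 7.10 ± 0.80 in pre-CD4 (n = 2), 4.95 ± 0.41 in pre-CD8 (n = 2), 8.46 ± 0.53 in CD172a DCs (n = 2) and 5.47 ± 0.39 in CD24 DCs (n = 3). It was highest in the cDC2 lineage, and pre-CD8 was lower than pre-CD4 (-2.15, adjusted p = 0.0191). Irf8 averaged between 11.49 and 12.14 in CDP, pre-CD4, pre-CD8 and CD24 DCs and 8.39 ± 0.58 in CD172a DCs, where it was lower than in pre-CD4 (-3.60, adjusted p = 2.22e-06). Jak2, a kinase gene of interferon-γ signalling, was higher than in CDP in pre-CD8 (1.59, adjusted p = 0.000292) and pre-CD4 (2.00, adjusted p = 8.21e-05). In pre-CD8 against CDP 1 of the 10 was called higher and 0 lower, and in pre-CD4 against CDP 2 were called higher and 0 lower, against 2.29% and 2.32% of all genes called higher. Ifngr1, the interferon-γ receptor gene, was higher in CD24 DCs than in pre-CD8 (1.39, adjusted p = 0.00368) and in CD172a DCs than in pre-CD4 (1.48, adjusted p = 0.00292).

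Of 8 measured endosomal processing genes, 1 was called higher and 1 lower in pre-CD8 against CDP, against 2.29% and 2.47% of all genes. In pre-CD4 against CDP 3 were called higher and 0 lower, against 2.32% and 2.23% of all genes. Against pre-CD4, the differences ran from -1.25 to -0.04 in pre-CD8 (1 called lower, Lgmn), where 0.32% of all genes were called lower. They ran from -1.50 to 0.00 in CD172a DCs (1 called lower, Ifi30), where 8.02% of all genes were called lower. In CD24 DCs they ran from -2.27 to -0.04 (3 called lower), where 2524 of 22184 genes were called, 39% of them higher. In each, 0 were called higher, against 0.383%, 4.7% and 4.44% of all genes. Ifi30, which encodes the thiol reductase GILT, was higher than in CDP in pre-CD8 (2.64 ± 0.38, adjusted p = 0.00103) and in pre-CD4 (3.00 ± 0.38, adjusted p = 0.000549). Ctsh, a cathepsin gene (1.25, adjusted p = 0.022), and Lgmn, which encodes the asparagine endopeptidase legumain (1.14, adjusted p = 0.014), were higher in pre-CD4 than in CDP. Ctsd, the cathepsin D gene, was lower in pre-CD8 than in CDP (-1.91 ± 0.27, adjusted p = 0.000733), lower again in CD24 DCs than in pre-CD8 (-1.06, adjusted p = 0.0297), and lower in CD24 than in CD172a DCs (-1.60, adjusted p = 0.00261). Cd74, the invariant chain gene, was not analysed here. Of 3 genes of surface turnover, Cd83, whose product protects surface class II from degradation, was higher in CD24 DCs than in pre-CD8 (3.39, adjusted p = 3.66e-05) and in CD172a DCs than in pre-CD4 (3.68, adjusted p = 2.71e-05). Marchf1, which encodes a ubiquitin ligase for class II, was higher in pre-CD8 than in CDP (0.87, adjusted p = 0.0381).

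**Figure D5:**
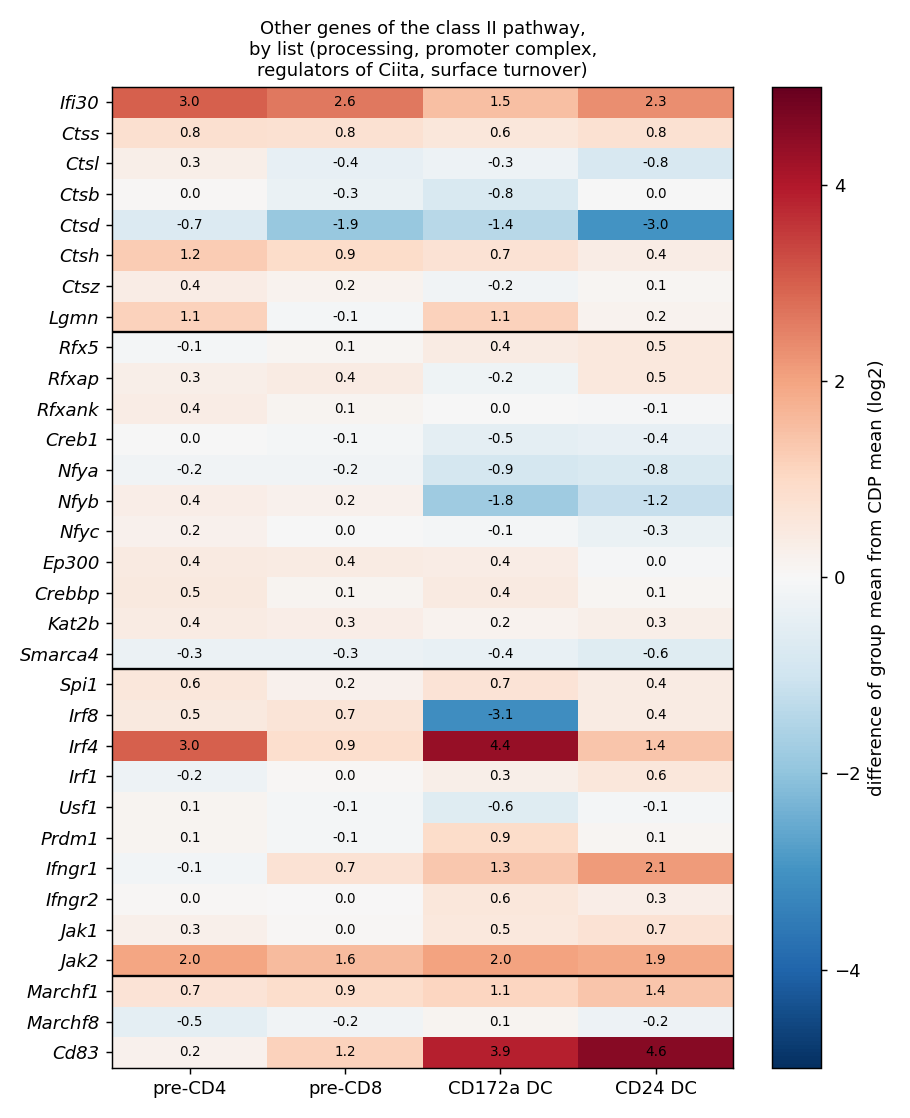
Difference of the group mean from the CDP mean (log2, colour and printed value) of other class II pathway genes (rows, in 4 lists parted by black lines) in 4 populations (columns). Ifi30 is at 3.00 in pre-CD4 and 2.64 in pre-CD8, and Ctsd is at -1.91 in pre-CD8.

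Markers of other cell types, and of cDCs themselves, differed in level between some of these populations. Summed as an array mean over 10 plasmacytoid DC markers, levels ran from 7.28 to 7.61 in pre-CD4 and from 5.67 to 6.13 in all other arrays, and 5 of the 10 were called higher in pre-CD4 than in CDP, against 2.32% of all genes. The pre-CD4 values of the class II genes stand beside that, and its part in them was not tested. Over 9 measured B cell markers, array means ran from 4.49 to 4.74 in CDP, 4.61 to 4.82 in pre-CD4, 4.65 to 4.82 in pre-CD8, 4.97 to 5.13 in CD172a DCs and 5.02 to 5.36 in CD24 DCs. Ms4a1 averaged 8.10 and Fcrla 7.15 in CD24 DCs, where H2-Oa also had its highest mean. Cd79b, which encodes another B cell receptor chain, had its highest mean in CDP (7.57) and its lowest in CD24 DCs (5.46). The B cell receptor chain gene Cd79a averaged 4.21 to 4.48 and the factor gene Ebf1 3.29 to 3.72 in every population, near or below the lower quartile of all genes. Over 7 measured monocyte and macrophage markers, array means were 6.22 to 6.63 in CDP, 6.65 to 6.88 in pre-CD4, 5.96 to 6.30 in pre-CD8, 5.80 to 5.99 in CD172a DCs and 5.38 to 5.72 in CD24 DCs. Its members went both ways: in CD172a DCs against pre-CD4, the macrophage marker gene Adgre1 was higher by 3.76 ± 0.30 (adjusted p = 5.03e-06) and the monocyte marker gene Ly6c2 lower (-7.25 ± 0.43, adjusted p = 7.27e-07). Adgre1 averaged 9.31 in CD172a DCs, where H2-Eb2 and H2-DMb2 had their highest means. Other markers of that list were lower there, with means of 5.84 for Cd14, 5.59 for Fcgr1, 5.03 for Mertk and 4.27 for Vcan. Ccr2 averaged 6.93 in CD172a DCs and 10.53 in pre-CD4. Means of 5 neutrophil genes varied within groups, from 6.46 to 10.69 in pre-CD8 and from 5.73 to 8.66 in CDP. Of these genes, 0 were called by limma in the 6 comparisons plotted, against 0.32% to 8.02% of all genes per direction. At an unadjusted limma p under 0.05 the count was 3 in CD24 DC against pre-CD8 and 0 in the others. In CD24 DC against pre-CD8 their differences ran from -3.90 to -1.78. In pre-CD8 against CDP the SE was 0.78 for Ltf and 1.71 for S100a8, so 0 calls do not show equal levels. Over 9 measured cDC markers the array means were 6.51 to 6.58 in CDP, 7.66 in both pre-CD4 arrays, 8.06 to 8.48 in pre-CD8, 7.99 to 8.52 in CD172a DCs and 8.67 to 9.03 in CD24 DCs. The part of the monocyte and neutrophil markers in the class II values was not tested.

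Over all genes, arrays of 1 population correlated at r = 0.925 to 0.987 and arrays of different populations at 0.858 to 0.976, with array means of 5.28 to 5.34.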

How the data were processed

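Per the labels' protocols, RNA of 12 sorted samples went through NuGEN's Ovation Pico WTA amplification and Encore biotin labelling. The authors deposited a table of log2 expression values, 1 per probe set and array, without pooling replicates, and these ran from 0.84 to 13.09. How these were background-corrected, summarized or normalized is not given in the sources used here. Array means were 5.28 to 5.34, medians 4.89 to 5.24 and interquartile ranges 2.1 to 2.86. No detection calls were used, so a low value may be background, and the small number of arrays limits the precision.

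Genes came from the platform annotation: of 35145 probe sets, 23525 had 1 symbol, 1810 several and 9810 none. Where a gene had several probe sets (1082 of 22184 genes), that of highest mean was used. Each of the 10 genes had 1 such probe set. Groups came from the sample titles. The test was limma's moderated one (version 3.58.1, under R 4.3.3; lmFit and eBayes), in 1 fit with a mean per population (residual degrees of freedom 7, prior 6.18), two-sided, with Benjamini-Hochberg adjustment over 22184 genes and a threshold of 0.05. The fit was tested on simulated data.

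The genes, pathway lists and marker lists were chosen with earlier results of these data known. Named are all 10 genes, pathway genes that were called (up to 6 per list, with Rfx5 and the cell markers added after its values were seen), and for 5 of the genes the 5 others of highest r among genes spanning at least 2 log2 units. Alternatives were quantile normalization, a filter on dim genes (40th percentile), every probe set tested, the mean of a gene's probe sets, a variance trend, a replicate block, only the compared groups in the fit, a threshold of 0.01, and each array left out. Replicate numbers were not read as pairing, because their meaning is not stated. Same-number deviations correlated over 0.1 in 13 of 13 pairs without CD172a DC and in 0 of 8 with it.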

Additional observations from a re-analysis of the deposited data

Results flagged for a closer look

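The gap between the 2 lineages differed between spleen and bone marrow for H2-Eb1, the I-E β chain gene. The contrast of CD24 DC minus CD172a DC, less pre-CD8 minus pre-CD4, was -3.67 ± 0.42 on the log2 scale (limma, adjusted p = 0.000959). Both pre-CD8 arrays lay above both pre-CD4 arrays, and the mature arrays overlapped. The progenitor gates differed in class II, intermediate for pre-CD8 and negative for pre-CD4, so this gap is not independent of the sort.

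The same contrast was -2.43 ± 0.34 for H2-DMb2, a DM β chain gene (adjusted p = 0.00322). There both pre-CD8 arrays lay above both pre-CD4 arrays, and all 3 CD24 DC arrays below both CD172a DC arrays.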

How the results depend on the processing

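Of 110 differences (10 genes, 10 pairs of populations and the contrast of lineage gaps), 63 were called, of which 47 kept their call in every alternative run, 16 lost it in at least 1, and 0 reversed while called. Counts of the 10 genes called changed by over 1.5 times in these cases. Pre-CD4 against CDP went from 5 to between 3 and 6 with 1 array left out. Pre-CD8 against pre-CD4 went from 5 to 2 at an adjusted p under 0.01, to 1 with only the groups compared in the fit, and to between 1 and 5 with 1 array left out. CD24 DC against pre-CD8 went from 3 to 1 with every probe set tested, to 1 under 0.01, to 1 with only the groups compared, and to between 0 and 4 with 1 array left out. The lineage contrast went from 2 to between 2 and 5 with 1 array left out. CD24 DC against CD172a DC went from 2 to 4 with the replicate block. Like-pattern genes taken over group means shared 11 of 25 names. With only the groups compared, the calls over all genes fell from 156 to 34 for pre-CD8 against pre-CD4, from 1399 to 683 for CD24 DC against pre-CD8, from 1239 to 611 between mature cells, from 2524 to 1581 for CD24 DC against pre-CD4 and from 229 to 134 for the lineage contrast, but rose from 1008 to 1356 for pre-CD4 against CDP, from 5065 to 6164 for CD172a DC against CDP, from 2821 to 2975 for CD172a DC against pre-CD4 and from 1057 to 1127 for pre-CD8 against CDP. With 1 array left out they ran from 556 to 1461 between mature cells and from 99 to 278 for the lineage contrast. A threshold of 0.01 left 0.38 to 0.6 of the calls. The cause of these changes was not tested.

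With the replicate number as a replicate block, 4 genes in place of 2 were called between CD24 and CD172a DCs, 7 in place of 8 for pre-CD8 against CDP, and 4 in place of 3 for CD24 DC against pre-CD8; counts in the other comparisons were as without it. Same-number deviations correlated at r = 0.10 to 0.42 over 13 pairs without CD172a DC and at -0.16 to 0.02 over 8 with it. In groups of 2 arrays the deviations mirror each other, so pairs between such groups are not separate evidence. In CDP and CD24 DC, 4 of 6 arrays correlated best with their own number.

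Signs turned only in uncalled differences. Quantile normalization gave -0.01 for H2-Eb2 in pre-CD8 against CDP, 0.05 for H2-Aa in CD172a DC against pre-CD8 and -0.03 for H2-DMb1 in the lineage contrast. It moved the median of all genes by over 0.1 only for CD172a DC against CDP, from 0.13 to 0.02. With 1 array left out, H2-Eb2 ran from -0.14 to 0.30 in pre-CD8 against CDP and from -0.33 to 0.11 against pre-CD4. H2-DMa ran from -0.39 to 0.03 in pre-CD8 against pre-CD4, -0.18 to 0.50 in CD172a DC against CDP and -0.21 to 0.21 in CD24 DC against pre-CD4. H2-DMb1 ran from -0.62 to 0.01 in CD172a DC against pre-CD4 and -0.31 to 0.32 in the lineage contrast, where H2-Oa ran from -0.71 to 0.03. Between mature cells H2-Eb1 ran from -0.01 to 0.47 and H2-Ob from -0.04 to 0.47, and in CD172a DC against pre-CD8 H2-Aa from -0.43 to 0.22 and H2-Ab1 from -0.05 to 0.36.

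Some uncalled differences were called in alternatives. H2-DMa in pre-CD4 against CDP had an adjusted p of 0.0254 with quantile normalization and 0.0448 with dim genes left out. H2-Eb1 in CD24 DC against pre-CD8 had 0.0335 with dim genes left out and 0.0402 with the block. In the lineage contrast, Ciita had 0.0407 with quantile normalization, and without pre-CD4 array 2 H2-Aa had 0.0114 and H2-Ab1 0.00116. Groups of 2 or 3 arrays and an unknown background limit what low values can show.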

Other observations

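H2-Ea, the I-E α chain gene, is not among the 10 genes and was looked at after its values were seen. C57BL/6 mice are known to carry a defect in this gene that leaves no I-E on the surface. Whether the signal of its probe set comes from a normal H2-Ea transcript was not tested, so the differences below describe that signal only. Its probe set read 3.82, 3.48 and 3.86 in CDP, 3.45 and 3.41 in pre-CD4, 3.87 and 4.20 in pre-CD8, 6.34 and 7.04 in CD172a DCs, and 5.48, 5.19 and 5.60 in CD24 DCs. All progenitor arrays were low, and the mature arrays were higher without overlap, CD172a DCs most. CD172a DCs exceeded pre-CD4 by 3.26 ± 0.26 on the log2 scale (limma, adjusted p = 4.9e-06), and CD24 DCs exceeded pre-CD8 by 1.39 ± 0.24 (adjusted p = 0.00266). CD24 DCs were lower than CD172a DCs (-1.27 ± 0.24, adjusted p = 0.00637). Against CDP the difference was 0.31 in pre-CD8 (adjusted p = 0.646) and -0.29 in pre-CD4 (adjusted p = 0.706). The order of the populations was that of H2-Eb2 among mature cells, whereas H2-Eb1 was high in pre-CD8 cells.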
